A study of Arabidopsis thaliana with 16 samples.

Results

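The plant elicitor peptide system of Arabidopsis thaliana comprises small precursor genes (PROPEP) and the receptor kinases PEPR1 and PEPR2. WRKY binding was described here at 8 of these genes: PROPEP1 (AT5G64900), PROPEP2 (AT5G64890), PROPEP3 (AT5G64905), PROPEP4 (AT5G09980), PROPEP5 (AT5G09990), PROPEP6 (AT2G22000), PEPR1 (AT1G73080) and PEPR2 (AT1G17750). The genes were chosen by name, and a peak was counted for a gene when the authors' deposited lists gave that gene as the nearest promoter, whatever the distance. Of the 8 genes, 4 had a peak in at least 1 library. The same lists assigned peaks to 3609 genes in all. The 4 genes held 23 of 14333 peaks.

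Pep peptides are cut from their precursors when cells are damaged or when immune signalling is active, and are then perceived at the cell surface by the leucine-rich repeat receptor kinases PEPR1 and PEPR2. The receptors act with the co-receptor BAK1 and amplify immune signalling started by microbial patterns such as flagellin, so the peptides are known as danger signals. WRKY proteins are plant transcription factors that bind W-box elements, and several are themselves made during immune signalling.

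Anti-WRKY chromatin immunoprecipitation followed by sequencing was done on whole seedlings of 12 days, in 4 groups with 2 biological replicates each. The groups were Col-0 wild type (WT) and a wrky18 wrky40 wrky33 triple mutant in the Col-0 background, each untreated at 0 h or after 2 h in medium with 1 µM flg22, the active peptide of bacterial flagellin. The serum recognises WRKY proteins in general and the mutant retains all other family members, so peaks in the mutant can come from these. Whole seedlings mix all cell types. The 0 h plants had no change of medium described, so flg22, the medium change and time cannot be told apart.

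The 8 lists held 1372 to 2213 peaks. Read depth was not analysed here, so how many reads stand behind a call is unknown. The list of untreated WT, replicate 1, lacked 136 of its 1508 region numbers, so a gene with no peak there may have stood in an absent row. Replicate numbers mark a shared experiment, and the lists of replicate 1 had wider peaks (median 525 to 564 bp) than those of replicate 2 (354 to 385 bp).

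Calls differed widely among the 8 genes. PROPEP3 was called in 8 of 8 libraries, PROPEP2 in 7 and PEPR1 in 6. PEPR2 was called in 2. PROPEP1, PROPEP4, PROPEP5 and PROPEP6 were listed in 0 of 8 libraries. For comparison, 12.4% of all 27444 nuclear protein-coding genes had a peak in at least 1 list, and 1.67% had one in every list (13.4% of the assigned genes). The lists hold only peaks that passed the authors' threshold, so binding below it cannot be judged.

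By group, 2 of the 8 genes were called in both untreated WT libraries, namely PROPEP2 and PROPEP3. Among all protein-coding genes this share was 2.83%, and among genes assigned in any list it was 22.7%. In flg22-treated WT there were 3, since PEPR1 was called in addition, beside 3.87% of protein-coding genes and 31.2% of assigned genes. In the untreated mutant there were 2, PROPEP3 and PEPR1, beside 3.15% and 25.4%. In the flg22-treated mutant there were again 3, PROPEP2, PROPEP3 and PEPR1, beside 3.83% and 30.8%. The genes were selected with earlier results of these data known, so these counts carry no test.

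**Figure D1:**
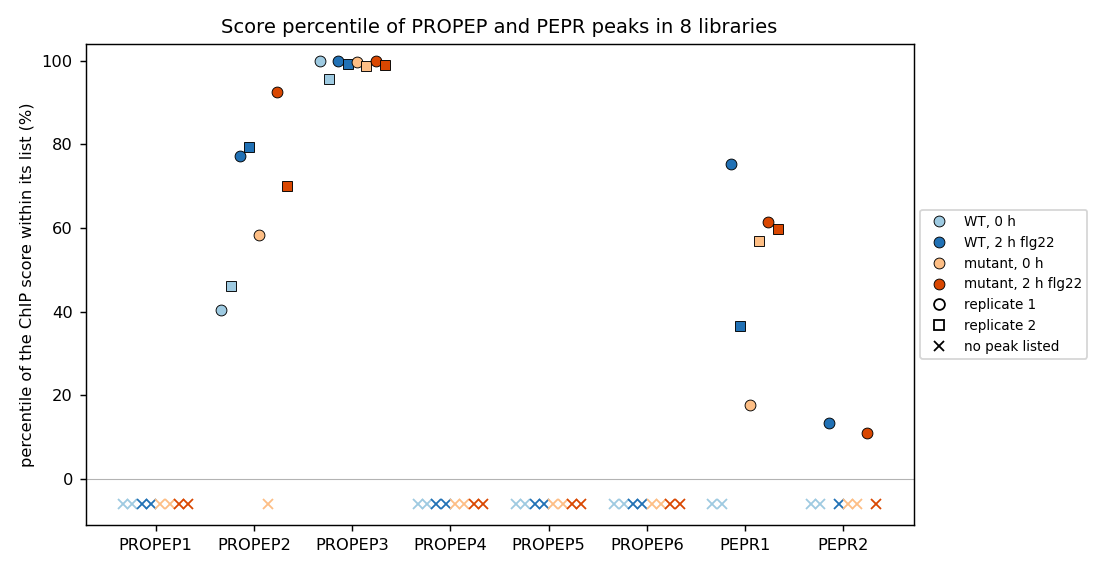
Percentile of the ChIP score within its own list (y axis, %, 100 for the top peak) for each of the 8 genes (x axis) in each library; circles are replicate 1, squares replicate 2, and crosses under the line mark libraries with no listed peak. PROPEP3 sits between 95.6 and 99.95 in all 8 libraries, PROPEP2 and PEPR1 spread over the middle of the scale, and PEPR2 lies at 10.9 and 13.3.

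The peptide precursors were described first. PROPEP3 encodes the precursor of Pep3 and carried one of the highest-scoring peaks of every list. By the ChIP score it ranked 3 of 1372 and 66 of 1466 in untreated WT, replicates 1 and 2. It ranked 4 of 1992 and 19 of 2074 in flg22-treated WT. In the mutant it ranked 7 of 1447 and 24 of 1720 at 0 h, and 2 of 2049 and 26 of 2213 at 2 h. By this score the peak stood closer to the top in replicate 1 than in replicate 2 in each group, and the groups overlapped.

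As percentiles of the list, with 100 for the top peak, PROPEP3 had 97.7 ± 3.03 in untreated WT and 99.5 ± 0.507 in flg22-treated WT (SD, n = 2 each). In the mutant it had 99.1 ± 0.652 at 0 h and 99.4 ± 0.764 at 2 h (SD, n = 2 each). The group means differed by less than the spread between the libraries of untreated WT. Over the 8 libraries its mean percentile, 98.9, was number 2 of the 3609 assigned genes. Lists of different lengths were ranked separately, so these percentiles place a peak within its list and do not measure a change in binding.

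The PROPEP3 peak covered the transcription start site in all 8 libraries. Together the peaks spanned chromosome 5 from 25938768 to 25940113 (TAIR10), and the stretch shared by all 8 ran from 25939071 to 25939702. Every one was annotated as promoter. The distances in the files place the start site at 25939574, and the maxima lay 260 to 389 bp upstream of it.

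The PROPEP3 peak had a different shape in the 2 replicates. In replicate 1 it was 1202, 1270, 1191 and 869 bp wide in untreated WT, flg22-treated WT, the untreated mutant and the flg22-treated mutant. In replicate 2 it was 632, 717, 683 and 713 bp wide in the same order. All 4 widths of replicate 1 exceeded all 4 of replicate 2, a mean of 1133 ± 179 bp against 686 ± 39.2 bp (SD, n = 4 each; exact two-sided permutation p = 0.0286, the smallest possible, and 0.0952 after Benjamini-Hochberg adjustment over the 10 tests of peak shape made here). Leaving out any 1 replicate 2 library raised the unadjusted exact p to 0.0571. The 4 libraries of a replicate share an experiment, so these p-values do not measure the spread between experiments. With the libraries of each group paired, the exact sign-flip test cannot go below 0.125. This contrast of replicates was not planned. Widths at 2 h and 0 h overlapped (892 ± 262 and 927 ± 312 bp, SD, n = 4 each; exact permutation p = 1).

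The maximum of the PROPEP3 peak also stood apart between replicates. It lay 368 to 389 bp upstream of the start site in replicate 1 and 260 to 294 bp upstream in replicate 2, a mean shift of 105 bp (exact permutation p = 0.0286, 4 against 4 libraries, adjusted p = 0.0952). This contrast was also unplanned, and the limits given for the width hold for it. Such a separation of maxima was common: it was found in 54% of the 459 regions with 1 peak in each of the 8 libraries. In 63% of them all replicate 1 peaks were wider than all replicate 2 peaks. A shift at least as large as that of PROPEP3 was seen in 20.3% of these regions. In each of the 4 groups the maximum of replicate 1 lay farther upstream than that of replicate 2.

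The rank of PROPEP3 depended on which deposited score was used. By the region log q score it lay between 98.9 and 99.9 in all 8 lists. By the ef score it lay lower, with a median of 86.9, a maximum of 96.4 and a minimum of 38.6 in replicate 1 of the untreated mutant. The ef score also reversed the order of the replicates in each group, while the log q score kept it. Replicates 1 and 2 stood at ef percentiles of 79.4 and 93.6 in untreated WT, and 89.5 and 96.4 in flg22-treated WT. In the mutant they stood at 38.6 and 95 at 0 h, and at 79.2 and 84.3 at 2 h. The share of other regions with either order was not computed. No source used here states the scale of these scores.

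PROPEP2 encodes the precursor of Pep2 and lies in the same cluster. Its peak ranked 818 of 1372 and 792 of 1466 in untreated WT, and 456 of 1992 and 429 of 2074 in flg22-treated WT. In the mutant it ranked 603 of 1447 in replicate 1 at 0 h and was not listed in replicate 2, and at 2 h it ranked 152 and 666 in replicates 1 and 2. The 3 percentiles at 0 h, 40.5 and 46.0 in WT and 58.4 in the mutant, were all below the 4 at 2 h, which were 77.2 and 79.4 in WT and 92.6 and 70.0 in the mutant.

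List length differs between times, so the PROPEP2 peak was also ranked among the 517 regions called in each of the 7 libraries that call it, a comparison added after seeing the data. In WT it stood at percentiles 14.3 and 21.9 of this shared set at 0 h and at 54.7 and 52.2 at 2 h. In the mutant it stood at 30.5 at 0 h and at 80.9 and 34.1 at 2 h. By the ChIP score the values of the 2 times did not overlap on this scale either, although the mutant values of 30.5 and 34.1 lay close together. By the ef score, within whole lists, the times did overlap: PROPEP2 stood at 5.61 and 3.82 in untreated WT and 36.1 in the untreated mutant, and at 32.9 and 22.8 in WT and 35.5 and 11.1 in the mutant at 2 h. No test was made of these percentiles. The share of other regions whose percentiles separate the 2 times was not computed, so whether PROPEP2 is unusual in this is unknown.

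In bp, every listed PROPEP2 peak of the treated plants was wider than every one of the untreated plants. As percentiles of the widths in each list the times overlapped, with 41.5 and 96.0 in untreated WT and 59.3 in the untreated mutant, and 85.2 and 93.3 in WT and 74.6 and 96.6 in the mutant at 2 h. It measured 496 and 611 bp in untreated WT and 579 bp in the untreated mutant. At 2 h it measured 882 and 727 bp in WT and 688 and 728 bp in the mutant. The difference was 756 ± 85.9 bp (SD, n = 4) against 562 ± 59.4 bp (SD, n = 3), and the exact permutation test (two-sided) gave p = 0.0286, the smallest value it allows. After adjustment over the 10 shape tests it was 0.0952, so the difference failed the correction. The same separation was present in 2.49% of the 481 regions with 1 peak in each of these 7 libraries, and the reverse separation in 0%. With same-numbered libraries of a genotype paired, all 3 differences were positive and averaged 204 bp, and the exact sign-flip test gave p = 0.25, its lowest value. Leaving out any 1 of the 7 libraries gave 152 to 219 bp with exact permutation p-values of 0.0667 to 0.1. Each of these was the lowest value that the remaining libraries allow, so the rise in p was set by their number. This contrast was chosen after the widths were seen.

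Both edges of the PROPEP2 peak were then compared. They set the width just described, so they are no separate result, and this comparison was also unplanned. The share of other regions with the same shift of an edge was not computed. At 0 h the 3 peaks ended 1 to 12 bp upstream of the start site, which the files place at 25934568 on chromosome 5. At 2 h all 4 peaks ended downstream of it, by 27 to 251 bp (exact permutation p = 0.0857, adjusted p = 0.171, 4 against 3 libraries). The upstream edge lay 496 to 622 bp before the start site at 0 h and 613 to 700 bp before it at 2 h, and these ranges overlapped (exact permutation p = 0.0857). The maximum lay 162 to 324 bp upstream and overlapped between replicates (exact permutation p = 0.6, 4 against 3 libraries).

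**Figure D2:**
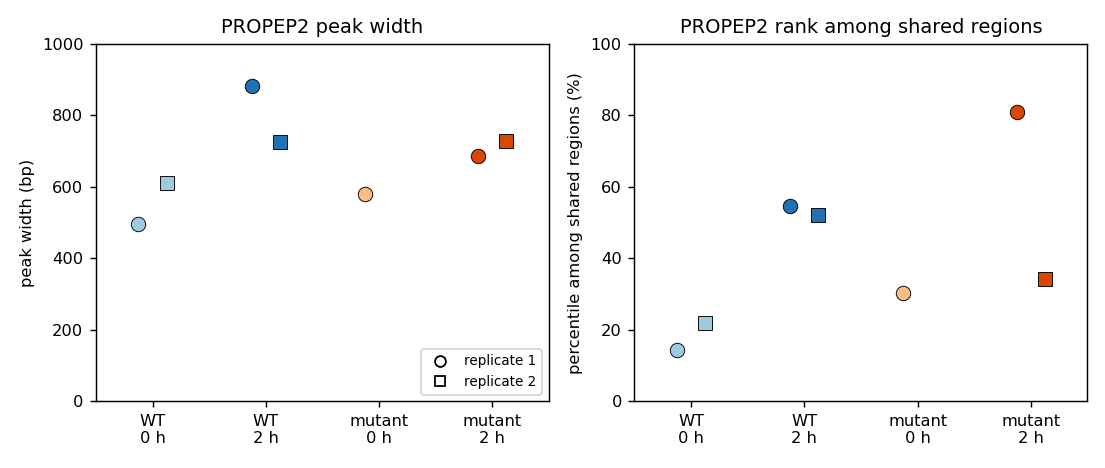
Width of the PROPEP2 peak in bp (left) and its percentile among the 517 regions called in each of the 7 libraries with a PROPEP2 peak (right), by group; circles are replicate 1 and squares replicate 2. Widths at 0 h are 496 to 611 bp and at 2 h 688 to 882 bp; the untreated mutant has 1 point, since its replicate 2 lists no PROPEP2 peak.

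By the ChIP score PROPEP2 stood below PROPEP3 in every list that held both. The difference in percentile was 32.7 ± 18.2 (SD, n = 7 libraries), with PROPEP3 higher in 7 of 7. The pair was set side by side after their ranks were seen, so this is a description with no test. It ranged from 7.32 in the flg22-treated mutant, replicate 1, to 59.4 in untreated WT, replicate 1. By the region log q score PROPEP2 had 43.4 to 93.3, close to its ChIP percentiles, while by the ef score it was at 36.1 or below.

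The gene order in the RefSeq table of assembly TAIR10.1 is PROPEP2, PROPEP1, PROPEP3, so PROPEP1 lies between the 2 bound genes. PROPEP1 encodes the precursor of Pep1, the founding member of the peptide family. The peaks of the cluster spanned 6246 bp, from 25933868 to 25940113 on chromosome 5, and all 15 peaks in this span were assigned to PROPEP2 or PROPEP3. The 3948 bp from 25934820 to 25938767 held 0 peaks of any gene in 8 libraries. The maxima of the 2 peaks were 4796 to 4998 bp apart, and the gap between the peaks was 3948 to 4514 bp. Hence the cluster carried 2 separate regions, and cutting the peaks to 150 bp around the maximum left the same number.

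**Figure D3:**
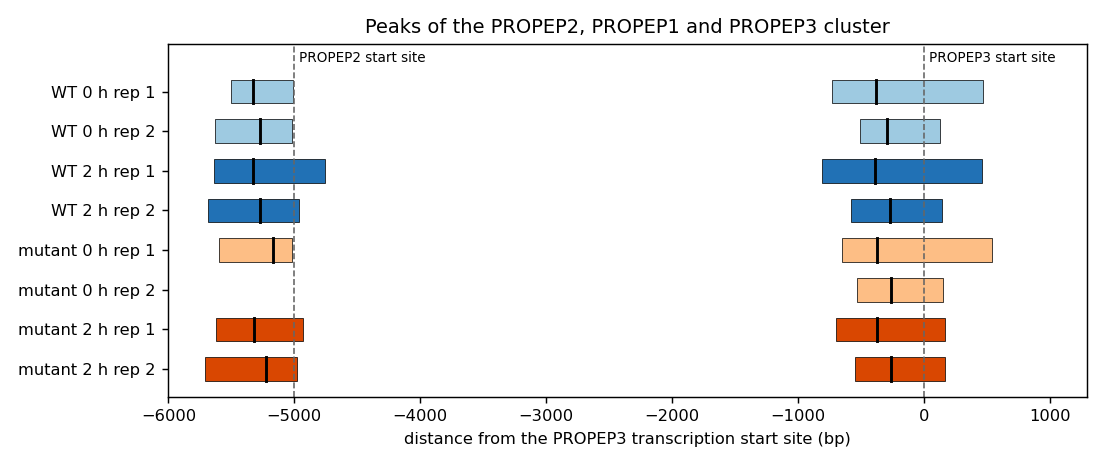
Peaks of the PROPEP2, PROPEP1 and PROPEP3 cluster in each library; the x axis is the distance in bp from the PROPEP3 start site, bars are peaks, black ticks their maxima and dashed lines the 2 start sites given by the files. Bars stand across or just upstream of the 2 start sites, and the stretch between the PROPEP2 bars and the PROPEP3 bars holds none. PROPEP1 lies between the 2 genes (its position is not drawn). PROPEP2 has no bar in replicate 2 of the untreated mutant, and PROPEP3 bars of replicate 1 are wider than those of replicate 2.

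PROPEP4 and PROPEP5 are neighbours on another part of chromosome 5, and PROPEP6 is on chromosome 2. None of them had a peak in any of the 8 libraries. PEP7 (AT5G09978), a further precursor gene that precedes PROPEP4 in the RefSeq gene order, was also listed in 0 of 8, as was AT5G09976, which precedes PEP7. In this family calls were therefore limited, in these lists, to the genes at the 2 ends of the PROPEP1 cluster.

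The receptors were described next. PEPR1, which binds several Pep peptides, had no peak in either library of untreated WT, of which replicate 1 is the list with absent region numbers. In flg22-treated WT its peak ranked 492 of 1992 in replicate 1 and 1319 of 2074 in replicate 2, or percentiles of 75.4 and 36.5. In the mutant it ranked 1193 of 1447 and 743 of 1720 at 0 h (percentiles 17.6 and 56.9), and 793 of 2049 and 889 of 2213 at 2 h (61.3 and 59.9). The percentiles of flg22-treated WT and of the untreated mutant overlapped.

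PEPR1 was thus called in both treated and in neither untreated WT library. It was 1 of the 4 PROPEP and PEPR genes with a peak in any of these 4 libraries to meet this rule, beside 7.85% of all 2993 such genes. The rule was met in the reverse direction by 0 of 4, beside 2.17%. In the mutant 0 of 4 met it in either direction, beside 3.59% and 0.55% of 3089 genes. At 0 h PEPR1 was also called in both mutant libraries and neither WT library, 1 of 3 genes with a peak at this time, beside 1.49% of 2414 genes, and 0 of 3 showed the reverse, beside 0.663%. At 2 h the genotypes differed at 0 of 4, beside 1.63% and 1.54% of 3375 genes. These comparisons, of time in WT and of genotype at 0 h, share the 2 untreated WT libraries, and both rest on the absence of a call there. Single libraries set the other counts: without replicate 2 of flg22-treated WT the WT count was 2, with PEPR2 added, and without replicate 2 of the flg22-treated mutant PEPR2 made the mutant count 1. Without replicate 1 of the untreated mutant, PROPEP2 was called with flg22 only in the mutant, and at 0 h in WT only.

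Over both genotypes PEPR1 was called in 4 of 4 libraries at 2 h and 2 of 4 at 0 h (exact two-sided permutation p = 0.429). The same numbers and the same p held for the mutant against WT. For the difference between genotypes in the change from 0 h to 2 h the exact permutation p was 0.3333, the lowest that 2 pairs against 2 allow. Across all 3609 genes no call difference passed 0.05 after Benjamini-Hochberg adjustment in either contrast of these exact permutation tests. Unadjusted, 46 genes were below 0.05 for time and 2 for genotype, and no PROPEP or PEPR gene was among them. The smallest p of 4 libraries against 4 is 0.0286, so with so few genes at that value none could have passed the adjustment, and the outcome says nothing about stability. With same-numbered libraries of a genotype or time paired, the exact sign-flip test cannot go below 0.125, so none of these genes stayed below 0.05.

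The weakest PEPR1 call stood near the end of its list. In the untreated mutant, replicate 1, its ChIP score was 1.08 times the lowest score of the list, and the other 5 calls were at 1.18 to 1.65 times. When only peaks at or above the median score of each list were kept, PEPR1 met neither rule: it was lost from 1 treated WT library and from 1 untreated mutant library. PROPEP2 then met the WT rule in its place. The score just under the threshold is not in the files, so how far untreated WT fell short cannot be given.

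The 6 PEPR1 peaks formed 1 region on chromosome 1 from 27483691 to 27484459, all annotated as promoter. Their maxima lay 436 to 620 bp upstream of the start site at 27484513, and the region ended short of it in all 6. Peak width was 594 to 765 bp and overlapped between replicates (681 ± 85.6 and 684 ± 8.62 bp, SD, n = 3 each; exact permutation p = 0.8). By the ef score PEPR1 stood at 52.9 to 93.3 in replicate 1 and at 13.7 to 17.0 in replicate 2, 2 ranges that do not overlap. How common such a separation of replicates is among other regions was not counted. By the region log q score it stood at 54.1 to 82.1.

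PEPR2, the closest relative of PEPR1 among the Pep receptors, was called only in replicate 1 of both flg22-treated groups. Its peak ranked 1728 of 1992 and 1826 of 2049, or percentiles of 13.3 and 10.9, and its scores were 1.07 and 1.06 times the lowest of the list. Both peaks lay on chromosome 1 between 6105353 and 6106101, and their maxima were 4 bp apart, 898 and 902 bp upstream of the start site at 6106656. PEPR2 had a call in 2 of 4 libraries at 2 h and 0 of 4 at 0 h (exact two-sided permutation p = 0.429), and no group had it in both libraries. The lists at 2 h are the longer ones. When each list was cut to the same number of top peaks, or to peaks at or above its median score, PEPR2 had 0 calls at either time. The same pattern of calls was present in 170 other genes.

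**Figure D4:**
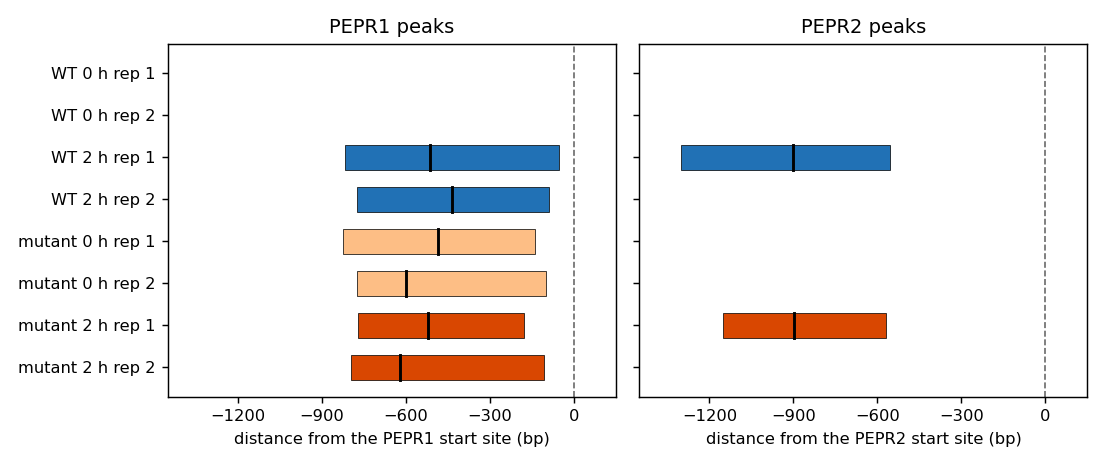
Peaks at the receptor genes PEPR1 (left) and PEPR2 (right) in each library; the x axis is the distance in bp from the gene's start site (dashed line), bars are peaks and black ticks their maxima. PEPR1 has a bar in 6 libraries and none in untreated WT, and PEPR2 has a bar only in replicate 1 at 2 h of each genotype, with maxima at -902 and -898 bp.

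Within 5000 bp of these peaks the only peak of a gene outside the 8 was at AT1G17744, 2976 bp from the PEPR2 peaks, in flg22-treated WT, replicate 1 (percentile 21.7). All 23 peaks of the 8 genes were annotated as promoter, against 64.6% of all 14333 peaks. The 23 peaks are repeated calls of 4 regions, and each gene had at most 1 peak per library. The distance of the maximum from the start site was least at PROPEP2 and PROPEP3, greater at PEPR1 and greatest at PEPR2, and the ranges of PEPR1 and PEPR2 overlapped neither each other nor those of the peptide genes.

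**Figure D5:**
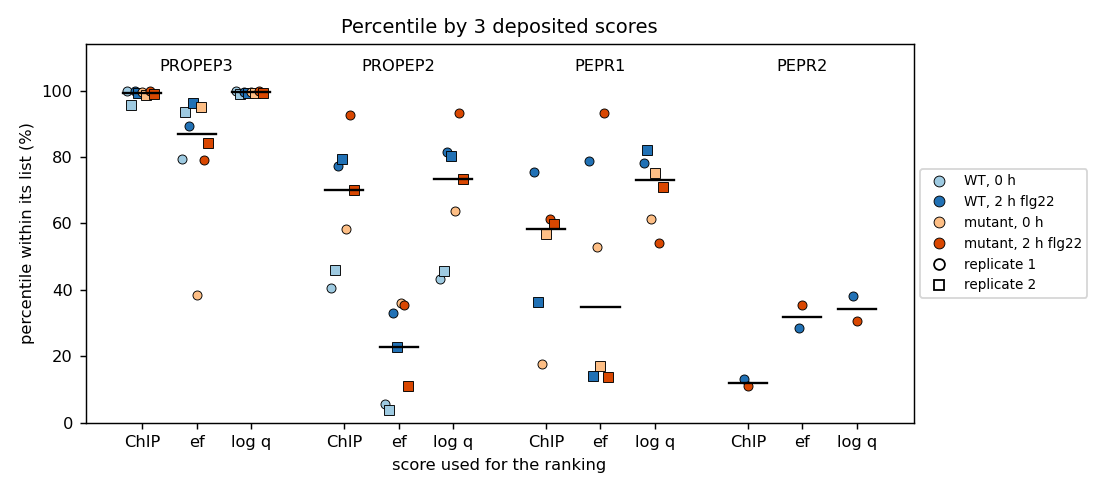
Percentile within its list (y axis, %) of each called PROPEP and PEPR peak when ranked by the ChIP score, the ef score or the region log q score; points are libraries, circles replicate 1, squares replicate 2, and bars medians. PROPEP3 is near the top by the ChIP and log q scores, and PROPEP2 falls to a median of 22.8 by the ef score.

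Genes that behave most like the 3 often-called members were found by the mean absolute difference in percentile over the 8 libraries, with 0 for no call. For PROPEP3 they were AT2G43620, a chitinase-like protein (0.971), the phytochelatin synthase gene CAD1 (0.982) and the ethylene response factor gene ERF-1 (AT4G17500; 1.62), all called in 8 of 8. For PROPEP2 they were AT1G53625 (4.88), the zinc finger gene AT1G02610 (5.58) and the nitrate-response regulator NLP7 (8.94). For PEPR1 they were the receptor kinase gene RPK1 (10.5), MIF1 (10.7) and AT5G57480 (12.1), so PEPR1 had no close match. Peak position was not part of this measure. Peak middles lay -3874 to -3658 bp from the start site at NLP7 and -1994 to -1948 bp at ERF-1. They lay -1723 to -1484 bp from it at MIF1 and -2311 to -539 bp at AT5G57480, and closer at the other genes. The exact pattern of PEPR1, every library except the 2 of untreated WT, was shared by 9 other genes, and that of PROPEP2 by 18.

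Other genes of Pep signalling were taken from a list of 9. Calls in both libraries of a group held for 1 of 9 in untreated WT and 2 in treated WT, and for 2 and 3 in the untreated and treated mutant. Among all protein-coding genes the shares were 2.83%, 3.87%, 3.15% and 3.83% in this order, and among genes assigned in any list 22.7%, 31.2%, 25.4% and 30.8%. The co-receptor BAK1 was called in 7 libraries, with percentiles from 20.3 to 89.4 and peak middles from -126 to 2 bp of its start site. The receptor-like cytoplasmic kinase PBL1 was called in 7 libraries (51.9 to 85.1) and its close relative BIK1, which relays signals from immune receptors, in 6 (13.1 to 34.7). BIK1 was the gene counted in untreated WT, where its peak middles lay 132 and 613 bp upstream of the start site in replicates 1 and 2. In the treated mutant they lay 466 and 23 bp upstream. Whether these BIK1 peaks are the same site was not tested. BAK1 and PBL1 were called in both libraries of each group except untreated WT, where 1 of 2 held them. The kinase CPK28 was called in 3 libraries. SERK4, the oxidase gene RBOHD and the metacaspase gene MC4, whose product cleaves PROPEP1, were called in 2 each, with no group having both libraries. None of the 9 met the rule of both libraries against neither in any comparison.

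A second list held 8 genes of other endogenous immune peptides and their receptors, 4 of which have only a locus code as their name in the RefSeq table. Of these 8, both libraries held 2 in untreated WT and 5 in treated WT, and 2 and 4 in the untreated and treated mutant, beside the shares of all genes just given. The peptide gene RALF23, the receptor kinase gene FER and AT4G37290 were listed in 0 of 8 libraries. AT4G08850, a leucine-rich repeat protein by the files, was called in all 8 libraries (83.5 to 94.2), as was AT5G44585 (42.0 to 97.5 for its highest-scoring peak). Another AT5G44585 peak, nearer the start site and at a lower percentile, was listed in every library except replicate 2 of the untreated mutant. The receptor-like kinase RLK7, named LRR XI-23 in the RefSeq table, was called in both treated and neither untreated library of each genotype, at 7.95 to 58.2 for its highest-scoring peak. Its calls came from 2 regions far from the start site. One, with middles 2866 to 2935 bp upstream, was listed in 4 of 4 treated libraries, and the other, 3486 to 3597 bp downstream, in 3 of them. AT4G28460 met the rule in WT (12.0 to 59.3 over its 3 calls). Its peak middles in treated WT lay 565 bp upstream of the start site in replicate 1 and 224 bp upstream in replicate 2. Whether these are the same site was not tested. The 2 genes that met the rule in WT, of the 5 of this list with a peak, stand beside 7.85% of all genes with a peak in these WT libraries, and RLK7 in the mutant beside 3.59%. The phytosulfokine receptor gene PSKR1 was called in 6 libraries (25.8 to 83.1 for its highest-scoring peak), with another peak farther upstream in both treated WT libraries.

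Of 6 receptors of microbial patterns, 2 were called in both libraries of every group, the chitin receptor kinase CERK1 (76.6 to 99.5) and SD1-29 (60.4 to 93.6), beside 1.67% of protein-coding genes and 13.4% of assigned genes with a peak in every list. LYK5 was called in 3 libraries, with no group having both. FLS2, the receptor of flg22, EFR and RLP23 were listed in 0 of 8 libraries.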

How the data were processed

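Each of the 8 anti-WRKY libraries had 1 deposited peak list with positions, 3 scores per peak, an annotation, the distance to the transcription start site and the nearest promoter. Per the submitters' processing notes, the build was TAIR10 and the tools were HOMER, SAMtools 0.1.18, Bowtie2 2.0.5, cutadapt 1.2.1 and FastQC 0.11.2; no source used here names the peak caller. Per the labels' protocols, DNA was linearly amplified, which can change the balance of fragments. The deposited ChIP, ef and log q region scores are each peak's own values on an unstated scale, and were used only to rank peaks within a list (ties took the best rank). The 8 input libraries were not analysed here.

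Start sites were computed as the peak's middle minus the deposited distance. Regions were peaks of any list sharing at least 1 bp. RefSeq's TAIR10.1 gene table gave names, gene order and the 27444 background genes (3564 of 3609 assigned genes were found); no coordinates were taken from it. Sequences were not analysed here. Genes, lists and tests were chosen with earlier results of these data known; the named genes are the 8 members, genes with a peak within 5000 bp, list genes called in both libraries of a group (at most 6 a list) and the 3 most alike genes of each member called in 4 or more libraries. Other genes named were chosen after their values were seen. Exact permutation tests (Python 3.11.15, pandas 2.3.3, NumPy 2.4.6) were two-sided at 0.05 and tested on simulated calls.

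The series' design text ties both replicate numbers to all 4 conditions. Replicate 1 minus 2 call differences correlated between groups at 0.320 to 0.459 over 3886 regions.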

Additional observations from a re-analysis of the deposited data

How the results depend on the processing

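With only peaks at or above each list's median score, members called in both libraries were 1 in untreated WT and 1 in the untreated mutant (2 each as reported), and 0 were called in the mutant but not WT at 0 h (1 as reported); 1 was still gained in WT, but it was PROPEP2 in place of PEPR1; PROPEP2 calls, mutant minus WT, turned from -0.25 to 0.25 of libraries (exact permutation p = 1). With the replicate block, counting within same-numbered pairs, a mean of 1 member was gained with flg22 in the mutant and 0.5 called in WT but not the mutant at 0 h (0 each as reported), and 1.5 were gained in WT. The block changed no call of a single gene (PEPR1, either contrast, exact p = 0.5). Leaving out each library in turn gave 1 to 2 members gained in WT (PEPR2 in addition without WT 2 h replicate 2), 0 to 1 gained in the mutant (1 without mutant 0 h replicate 1 or mutant 2 h replicate 2) and 0 to 1 called in WT but not the mutant at 0 h (1 without mutant 0 h replicate 1). Equal numbers of peaks, either window around the start site and merged regions in place of genes moved none of these counts by over 1.5 times. Over 208 alternative values of single-gene calls 0 passed 0.05 in exact tests and the smallest p was 0.143. PROPEP1, PROPEP4, PROPEP5 and PROPEP6 had no peak, so their values were fixed. PROPEP3 was called in every library in all settings, so it could show no difference either. In the replicate block the exact sign-flip test cannot go below 0.125. The count therefore says little about stability. Without each library, exact permutation tests gave a PROPEP2 width difference of 152 to 219 bp (p 0.0667 to 0.1, each the lowest possible). The PROPEP3 width difference between replicates was 401 to 535 bp without each library (exact permutation p 0.0286 to 0.0571), where libraries of a replicate share an experiment. The PROPEP3 minus PROPEP2 percentile was then 28.2 to 36.9. Ranking WT 0 h replicate 1 by region number, chosen after seeing the data, gave PROPEP2 40.4 and PROPEP3 99.9. The cause of these differences was not tested. The reads behind the calls were not analysed here, and 2 libraries a group limit every count.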
